A study of Homo sapiens with 3 samples.

Results

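Histone genes were examined in HCC827 cells, an established human lung adenocarcinoma line whose growth is driven by a mutant EGFR, after exposure to compounds of a plant-derived class, which the series title names as daphnane diterpenoids. Of 20332 genes in the deposited table, 73 carried the symbol of a linker histone (H1, 10 genes) or of a core histone from the gene clusters (H2A, 17 genes; H2B, 18; H3, 13; H4, 15), and membership was set by symbol alone. The 3 libraries came from cells given compound 2 (5 μM, 24 h), cells given compound 1 (5 μM, 24 h) and cells given DMSO, the vehicle, for which the labels gave no time. Each library was the only one of its group, so no value has a replicate error, no test was possible, and every difference is one between 2 libraries. The columns summed to 1000000 each, and the values are called TPM, a gene's part of the length-corrected signal of its library. Log2 ratios were taken on TPM + 1, and this constant pulls the ratio of a low gene towards 0. Both compounds were set against the same DMSO library, so their ratios share its error.

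Histones package DNA. An H3-H4 tetramer and H2A-H2B dimers form the nucleosome core, and H1 binds the linker DNA beside it. Most core histone genes lie in clusters and are transcribed in S phase, when new DNA needs new nucleosomes. Their mRNAs usually end in a short stem-loop instead of a poly(A) tail. The stem-loop is bound by SLBP, which directs processing, translation and decay of the mRNA. Some clustered genes also make longer, polyadenylated transcripts, particularly in cells that leave the cycle, and the linker gene H1-10 lies outside the clusters and makes polyadenylated mRNA. The labels named an Illumina TruSeq RNA kit and did not say whether poly(A) RNA was selected. Selection on poly(A) recovers stem-loop-ended mRNA poorly, and its part in the levels below was not tested.

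The stem-loop is shown here because it divides the annotated transcripts of the family. It was searched on the transcript strand of GENCODE 29 transcripts and found in 31 of the 73 genes. By that search, 0.171% of the longest transcripts of all coding genes held one. The most frequent form, shared by 17 members, is given as found in H2BC21 (GRCh38, chr1:149886188-149886203, minus strand). The others are from H4C8 (chr6:26285131-26285146, minus strand), H2BC4 (chr6:26123472-26123487, minus strand) and H4C14 (chr1:149833032-149833047, plus strand). Capitals mark the loop of 4 bases between the arms of the stem.
H2BC21: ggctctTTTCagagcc
H4C8: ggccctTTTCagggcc
H2BC4: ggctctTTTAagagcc
H4C14: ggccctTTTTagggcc
The arms differ between the printed H4 genes and the H2B genes, and the last base of the loop differs between H2BC21 and H2BC4. In 23 members an annotated transcript ran at least 100 bases past this stem-loop. Among them were H2AC6, by up to 1128 bases, H2BC8, by 1059, and H2BC21, by 1729. Many other members are annotated in that release by their coding part alone, so a missing stem-loop there says nothing about the mRNA.

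H2A and H2B genes often stand head to head, with a common stretch of promoter between their starts. In RefSeq promoter windows (GRCh38.p14, from 250 bases before to 50 after the start), 12 such head-to-head pairs of members had starts at most 500 bases apart. In one of them H2BC7 is joined to a start that RefSeq gives to both H2AC7 and H3C4, so the pair of H2BC7 with H3C4 is counted as well. The windows of 3 pairs are shown because each covers both starts and their genes are compared below. Capitals mark ATTTGCAT (the octamer bound by OCT1, which POU2F1 encodes), CCAAT and TATAAA, searched on both strands. The first lies at chr6:26123922-26124221 (plus strand), the second at chr1:149886633-149886932 (minus strand) and the last at chr6:26216639-26216938 (minus strand).
H2AC6 with H2BC4: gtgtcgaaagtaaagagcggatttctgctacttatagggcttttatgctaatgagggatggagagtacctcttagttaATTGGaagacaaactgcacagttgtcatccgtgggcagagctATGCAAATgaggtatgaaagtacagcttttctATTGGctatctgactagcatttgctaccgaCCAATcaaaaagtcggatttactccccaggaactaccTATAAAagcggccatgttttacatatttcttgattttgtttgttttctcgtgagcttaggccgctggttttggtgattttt
H2BC21 with H2AC20: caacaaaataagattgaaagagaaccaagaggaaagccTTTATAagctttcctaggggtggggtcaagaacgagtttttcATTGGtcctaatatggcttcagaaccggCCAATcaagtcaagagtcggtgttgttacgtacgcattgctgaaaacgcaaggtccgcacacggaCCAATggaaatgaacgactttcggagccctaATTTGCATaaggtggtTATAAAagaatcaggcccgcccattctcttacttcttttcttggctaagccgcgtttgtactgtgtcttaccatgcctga
H2BC8 with H2AC8: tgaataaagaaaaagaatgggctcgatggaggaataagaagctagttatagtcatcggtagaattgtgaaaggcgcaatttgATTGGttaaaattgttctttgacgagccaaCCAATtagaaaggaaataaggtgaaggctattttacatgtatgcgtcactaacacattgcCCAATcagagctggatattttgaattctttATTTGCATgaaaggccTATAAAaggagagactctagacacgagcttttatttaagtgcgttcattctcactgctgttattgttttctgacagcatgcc
All 3 windows hold each of the motifs, and no marked motif overlaps another. ATTTGCAT was found in 11 of 16 H2A windows and 15 of 20 H2B windows, against 1.77% of all 35116 promoter windows. It was in 1 of 13 H3 windows, the one H3C4 shares with H2AC7, no H4 window of 13 and no H1 window of 10. CCAAT was in all 16 H2A, all 20 H2B and all 13 H3 windows but in 3 of 13 H4 windows, against 34.6% of all windows. Head-to-head genes share bases, so their windows do not count separately, and a match in letters is not a measured binding site.

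Summed over all 73 genes, histone mRNA amounted to 374 TPM after compound 2, 538 TPM after compound 1 and 243 TPM in the DMSO library. The sum was thus 1.54-fold that of DMSO after compound 2 and 2.21-fold after compound 1. The whole family was a minor part of the mRNA measured: in the DMSO library H2AZ1, the gene of a single variant histone outside the rule, stood at 685 TPM. The H2A class differed most, at 130 TPM after compound 2 and 184 TPM after compound 1 against 51.8 TPM in DMSO. H2B summed to 85.6, 142 and 55.1 TPM, and H4 to 35.7, 61.5 and 19.9 TPM. The H3 class was near the floor in every library, at 4.51, 5.10 and 5.68 TPM, and it was the one class whose sum was lower after both compounds.

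**Figure D1:**
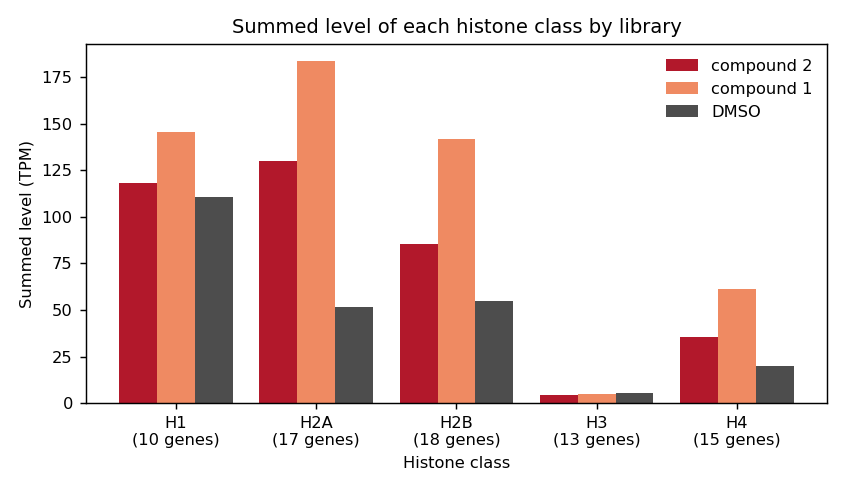
Summed TPM of each histone class (bars; x axis, class with its number of genes) in the compound 2, compound 1 and DMSO libraries, 1 library per group. H2A stood at 130, 184 and 51.8 TPM, whereas H3 stayed between 4.51 and 5.68 TPM.

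Of the 73 genes, 23 averaged 1 TPM or more and are called the measured genes, 32 were above 0 with a lower mean, and 18 were listed at 0 throughout. Nearest to that threshold were H2BC18 (mean 1.02) and H3C10 (1.35) above it and H2AC11 (0.949) and H4C16 (0.819) below it. Some DMSO values need care: H2BC8, H2BC15, H2BC18 and H3C6 were under 1 TPM in the DMSO library and reached the mean through a compound library, so they had to differ. After compound 2, 8 of the 23 were at least 2-fold higher than in DMSO and 1 was at least 2-fold lower, where 12.6% and 6.56% of all 11600 genes of that level were. After compound 1, 12 were higher and 2 lower, where 14.7% and 8.09% of all genes were. The median log2 ratio of the 23 was 0.21 after compound 2 and 1.01 after compound 1, beside 0.09 and 0.11 for all genes. Without the 4 genes that had to differ, 6 of 19 were higher after compound 2 and 8 of 19 after compound 1, and the medians were 0.18 and 0.74. Bulk RNA cannot tell fewer or more cells with a transcript from less or more of it in each cell.

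**Figure D2:**
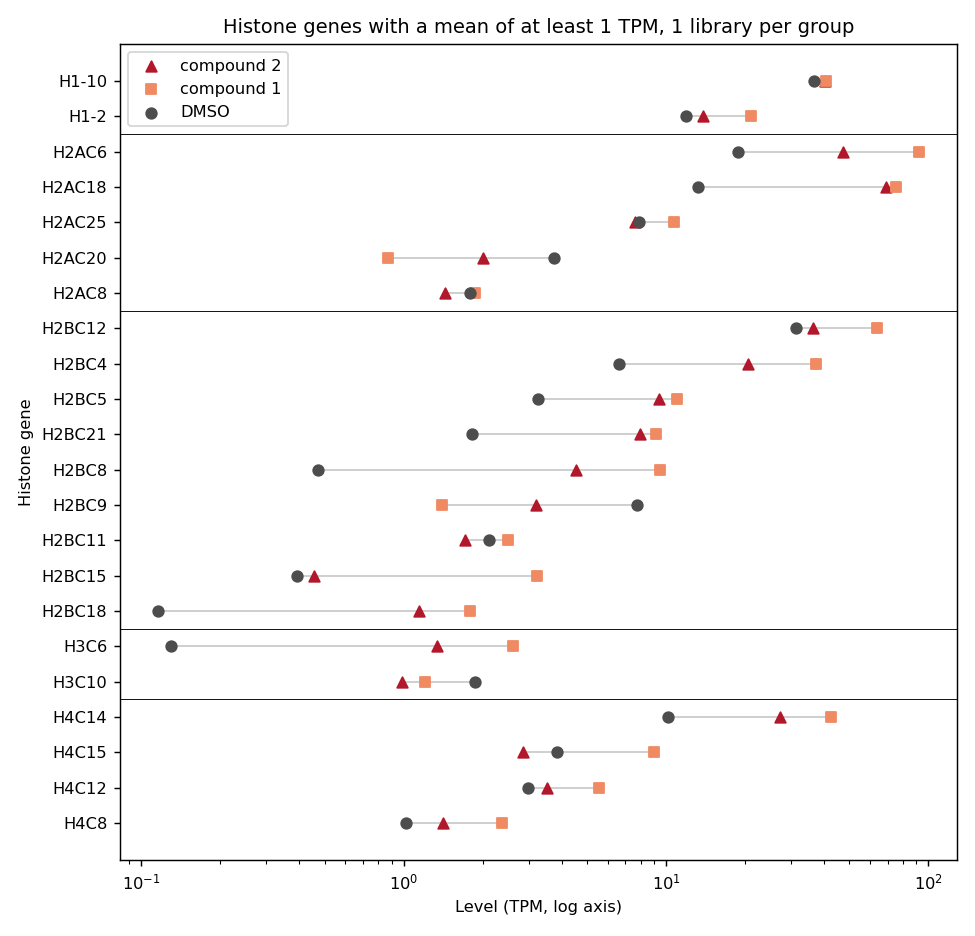
Level of the measured histone genes described in the text (x axis, TPM on a log axis; y axis, gene, grouped H1 to H4 by lines) in the compound 2, compound 1 and DMSO libraries. Most DMSO points lie left of both compound points, while H2AC20, H2BC9 and H3C10 show the opposite order against DMSO.

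H1-10, a linker gene outside the clusters (chromosome 3), stood at 40.3, 40.5 and 36.5 TPM in the compound 2, compound 1 and DMSO libraries. Its exons overlap those of an antisense gene, H1FX-AS1. H1-2, a somatic linker gene of the chromosome 6 cluster, stood at 13.9, 21.1 and 11.9 TPM, with log2 ratios of 0.21 and 0.78. Neither passed 2-fold against DMSO on the values as deposited, but H1-2 reached 1.31 for compound 1 after correction for length and GC content. The other somatic linker genes of the cluster were low: H1-3 had 0.319, 0.139 and 0.596 TPM, H1-4 had 0.471, 0.684 and 0.147 TPM, and H1-5 had 0.155, 0 and 0.581 TPM. The germline genes H1-6, H1-7 and H1-8, and H1-1, were at 0 in every library.

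Among H2A genes, H2AC6 and H2AC18 carried the difference. H2AC6 (ENSG00000180573, GRCh38 chr6:26124145-26139116, plus strand) stood at 47.2 TPM after compound 2 and 92.3 TPM after compound 1, against 18.7 TPM in DMSO. Its log2 ratios were 1.29 and 2.24, and in the compound 1 library it was the most abundant of all members. It shares 1.83% of its 31-base words with other genes. H2AC18 (ENSG00000288825, chr1:149842188-149842736, minus strand) stood at 68.6 TPM after compound 2 and 75.3 TPM after compound 1, against 13.2 TPM in DMSO. Its log2 ratios of 2.29 and 2.42 lay close together for the 2 compounds. All its 31-base words occur in H2AC19, a copy listed at 0 in every library, so how the signal was split between the copies is uncertain.

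The 3 other measured H2A genes did not follow. H2AC20 (ENSG00000184260, chr1:149886975-149887364, plus strand) was lower, at 2.02 TPM after compound 2 and 0.871 TPM after compound 1, against 3.75 TPM in DMSO. Its log2 ratios were -0.65 and -1.34, on about 8, 4 and 16 reads in the compound 2, compound 1 and DMSO libraries. After correction for length and GC content they were -0.08 and -0.75, and with a pseudocount of 5 the compound 1 ratio was -0.58, so its place past 2-fold depends on these settings. It shares 50.6% of its 31-base words with other genes, H2AC18 foremost. H2AC25, from the small cluster near the end of chromosome 1, stood at 7.60, 10.8 and 7.86 TPM, with log2 ratios of -0.04 and 0.41. H2AC8 stood at 1.43, 1.87 and 1.79 TPM, on 6 to 9 reads, and its log2 ratios of -0.20 and 0.04 turned sign under other settings (0.31 for compound 2 with the length and GC trend subtracted, -0.03 for compound 1 with median-of-ratios scaling).

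H2B genes had the most members past 2-fold, and also the most measured ones, 9 of the 23. Of these 9, 4 were higher after compound 2 and 7 after compound 1, where 12.6% and 14.7% of all genes were. H2BC8, H2BC15 and H2BC18 among the 9 had to differ. H2BC12 (ENSG00000197903, chromosome 6) was the most abundant, at 36.5 TPM after compound 2 and 63.9 TPM after compound 1 against 31.3 TPM in DMSO. Its log2 ratio of 1.01 for compound 1 was at the edge of 2-fold and came to 0.90 under other scalings, and for compound 2 it was 0.21. It shares 86.3% of its 31-base words with other genes, with H2BFS the closest, so its level is uncertain. H2BC4 (ENSG00000180596, chr6:26114873-26123926, minus strand) stood at 20.4 TPM after compound 2, 37.4 TPM after compound 1 and 6.62 TPM in DMSO, with log2 ratios of 1.49 and 2.33. H2BC5 stood at 9.36, 11.05 and 3.26 TPM (log2 ratios 1.28 and 1.5). H2BC21 (ENSG00000184678, chr1:149884459-149886652, minus strand) stood at 7.95, 9.19 and 1.82 TPM (log2 ratios 1.67 and 1.85). Both compound libraries were above DMSO for each of these 4 genes.

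H2BC8 (ENSG00000273802, chr6:26215159-26216692, minus strand) had the largest compound 1 ratio of the family on TPM + 1, but it had to differ. With a pseudocount of 5 that ratio came to 1.40, under 2.14 for H2AC18. H2BC8 stood at 4.55 TPM after compound 2 and 9.46 TPM after compound 1, against 0.473 TPM in DMSO, with log2 ratios of 1.91 and 2.83. By the read estimate explained below, these values rest on about 18, 43 and 2 reads. H2BC18, whose exons overlap those of FCGR1A on the other strand, stood at 1.15, 1.80 and 0.116 TPM, with log2 ratios of 0.95 and 1.33. H2BC15 was higher after compound 1 alone, at 0.456 TPM after compound 2, 3.23 TPM after compound 1 and 0.392 TPM in DMSO. In GENCODE 29, exons of H2BC15 overlap those of H2AC15 and H2AC16, so its level is uncertain. After correction for length and GC content, taken from its longest GENCODE transcript (4137 bases), its log2 ratios were -0.59 and 0.91. RefSeq gives this gene 542 bases, so the correction is uncertain for it. H2BC11 differed little, at 1.72, 2.49 and 2.12 TPM.

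H2BC9 (ENSG00000275713, chr6:26251651-26253710, plus strand) was the one H2B gene at least 2-fold lower after either compound among those measured. It stood at 3.21 TPM after compound 2 and 1.40 TPM after compound 1, against 7.76 TPM in DMSO, where H2BC12 was the only H2B gene above it. Its log2 ratios were -1.06 and -1.87, on about 12, 6 and 31 reads. With a pseudocount of 5 they were -0.64 and -0.996, neither past 2-fold, so its place there depends on this setting. It shares 3.65% of its 31-base words with other genes. It too has an annotated transcript past the stem-loop, by 1640 bases.

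H3 and H4 genes were measured less often. H3C6 stood at 1.34 TPM after compound 2 and 2.61 TPM after compound 1, against 0.130 TPM in DMSO (log2 ratios 1.05 and 1.67). H3C10 stood at 0.989, 1.21 and 1.87 TPM (log2 ratios -0.53 and -0.38), on about 4, 5 and 8 reads. H4C14 (ENSG00000270882, chr1:149832659-149839767, plus strand) was the leading H4 gene, at 27.1 TPM after compound 2, 42.6 TPM after compound 1 and 10.2 TPM in DMSO (log2 ratios 1.33 and 1.97). H4C15 stood at 2.84, 9.02 and 3.83 TPM (log2 ratios -0.33 and 1.05), and its compound 1 ratio came to 0.96 under either other scaling and 0.67 with a pseudocount of 5. H4C14 and H4C15 are copies that share all their 31-base words, so how the signal was split between them is uncertain. Summed, the copies stood at 30.0 TPM after compound 2, 51.6 TPM after compound 1 and 13.99 TPM in DMSO, with log2 ratios of 1.05 and 1.81. Exons of H4C14 also overlap those of H3C14 on the other strand, those of H4C15 overlap H3C15, and the labels did not say whether counting used strand. H4C12 stood at 3.51, 5.56 and 2.99 TPM and H4C8 at 1.41, 2.37 and 1.02 TPM, and neither passed 2-fold on the values as deposited. For compound 1, H4C12 came to 1.33 after correction for length and GC content, and H4C8 to 1.14 with a pseudocount of 0.1. All 31-base words of H4C12 occur in H4C11, which was at 0 throughout.

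**Figure D3:**
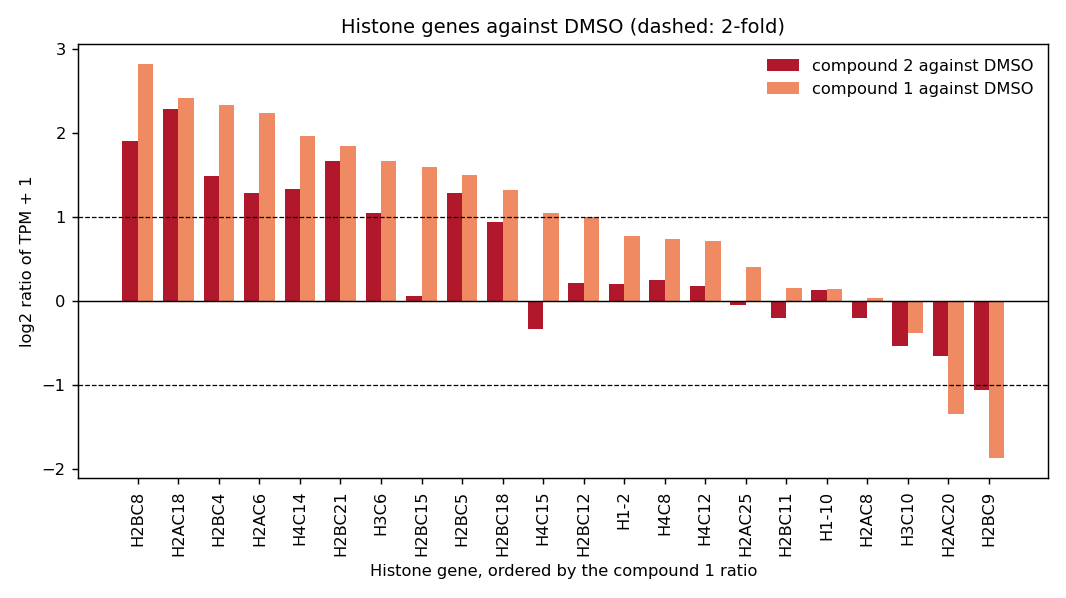
Log2 ratio of TPM + 1 against DMSO (y axis) for the measured histone genes described in the text (x axis, ordered by the compound 1 ratio), compound 2 and compound 1 side by side; dashed lines mark 2-fold. In that order H2BC8, one of the genes that had to differ, comes first at 1.91 and 2.83, and H2BC9 closes the row at -1.06 and -1.87.

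The 50 genes under the mean of 1 TPM were compared by how many were above 0. Of these, 17 were above 0 after compound 2, 17 after compound 1 and 26 in the DMSO library. Of all 20332 genes, at any mean, 14154, 14473 and 14409 were above 0 in these libraries. The share of all genes under that mean was not computed, so no tendency of the family is read from these counts. Together they summed to 7.18 TPM after compound 2, 8.28 TPM after compound 1 and 14.6 TPM in DMSO. In the DMSO library alone 9 were above 0, namely H2AC12, H2AC14, H2AC16, H2BC13, H2BC17, H3C12, H4C2, H4C6 and H4C13, at 0.226 to 1.01 TPM. In the compound 1 library alone there were 4, H2AC21, H2BC7, H3C3 and H4C3, and in the compound 2 library alone there were 2, H2AC4 and H3C13. These values are steps of single reads. For members with a single RefSeq transcript under 1000 bases, TPM times length fell near whole multiples of 0.123, 0.108 and 0.116 TPM per kb in the compound 2, compound 1 and DMSO libraries. Between 78.1% and 82.6% of the values under 12 such steps lay within 0.1 of a whole number, but each step size had been chosen to suit those values. One read on a transcript of 500 bases was then worth 0.246, 0.216 and 0.231 TPM, so the 3 libraries had similar depth per gene length. By that scale the 47 low genes with an estimate held about 29, 39 and 63 reads in all in the compound 2, compound 1 and DMSO libraries.

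By class, the low genes were scattered over the libraries. Of the low H2A genes, H2AC17 stood at 0, 0.221 and 0.950 TPM and H2AC7 at 0.475, 0.418 and 0.692 TPM in the compound 2, compound 1 and DMSO libraries, whereas H2AC15 stood at 0.498, 0.651 and 0.233 TPM. Of the low H2B genes, H2BC6 was highest after compound 1, at 0.191, 0.583 and 0.090 TPM. Low H3 genes differed in order as well, with H3C2 at 0.726, 0 and 0.906 TPM, H3C8 at 0.498, 0.217 and 0.700 TPM and H3C1 at 0, 0.847 and 0.228 TPM. These values rest on about 0 to 4 reads in a library, a depth at which such differences were not detectable. Of the low H4 genes, H4C16, alone on chromosome 12, stood at 0.515, 1.20 and 0.746 TPM and H4C5 at 0.300, 0.522 and 0.281 TPM. At 0 throughout were 4 H1, 2 H2A, 4 H2B, 3 H3 and 5 H4 genes.

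Some low genes share sequence, and here the copies were added. H2AC13 and H2AC14 came to 0.25 TPM after compound 2 and 0.217 TPM after compound 1 against 2.14 TPM in DMSO. H3C14 and H3C15, which are identical in their 31-base words, came to 0.239 and 0 TPM against 1.56 TPM. In both pairs the DMSO library was the higher one. With the low genes counted too (55 genes above 0 in any library), the lower ones came to 3 after compound 2 and 4 after compound 1, and the higher ones numbered 8 and 12. Of all 15449 genes above 0 in any library, 5.27% and 6.41% were lower, near the members' shares, and 9.68% and 11.1% were higher. The median log2 ratio of those 55 was 0.00 for compound 2 and 0.25 for compound 1, beside 0.01 and 0.04 for all these genes.

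The higher genes lay in both main clusters. Of the 55 members on chromosome 6, 14 were measured, and 5 of them were at least 2-fold higher after compound 2 and 7 after compound 1. Of the 13 on chromosome 1, 7 were measured, with 3 higher after compound 2 and 5 after compound 1. Of all genes of that level, 12.6% and 14.7% were higher. The chromosome 6 counts include H2BC8, H3C6 and, after compound 1, H2BC15, which had to differ. The chromosome 1 count after compound 1 includes H2BC18, which had to differ as well. The members on chromosome 1 summed to 118 TPM after compound 2 and 150 TPM after compound 1 against 42.4 TPM in DMSO, and those on chromosome 6 to 152 and 262 TPM against 103 TPM. The lower genes were likewise divided, H2BC9 on chromosome 6 and H2AC20 on chromosome 1. Within the chromosome 6 cluster, H2BC8, higher after both compounds, and H2BC9, lower after both, lie near each other. The promoter window of H2BC9 holds ATTTGCAT and CCAAT but not TATAAA. That of H4C14, higher after both compounds, holds none of the 3 motifs, and that of H2AC18 lacks ATTTGCAT.

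Genes that stand head to head did not always move together. H2AC6 and H2BC4, whose starts lie 246 bases apart, were both at least 2-fold higher after each compound. In the pair of H2BC21 and H2AC20, with starts 236 bases apart, the directions were opposite: H2BC21 had log2 ratios of 1.67 and 1.85, while H2AC20 had -0.65 and -1.34 (-0.08 and -0.75 after correction for length and GC content). H2BC21 was thus above its partner after both compounds (7.95 against 2.02 TPM after compound 2, 9.19 against 0.871 TPM after compound 1) and below it in DMSO (1.82 against 3.75 TPM). In the pair of H2BC8 and H2AC8, with starts 233 bases apart, H2BC8 had log2 ratios of 1.91 and 2.83. It is among the genes that had to differ, so this pair says little about moving together. H2AC8, on few reads, stayed within 0.20 of no difference on the values as deposited. After correction for length and GC content its log2 ratios were 0.31 and 0.57. For H2BC21 and H2BC8, transcripts of over 1000 bases past the stem-loop are annotated. None is for their partners, H2AC8 having 51 bases after its stem-loop and H2AC20 being annotated without one. Across the promoter of H2AC25 and H2BC26, H2AC25 was at 7.60 to 10.8 TPM and H2BC26 at 0.099, 0.541 and 0.093 TPM.

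**Figure D4:**
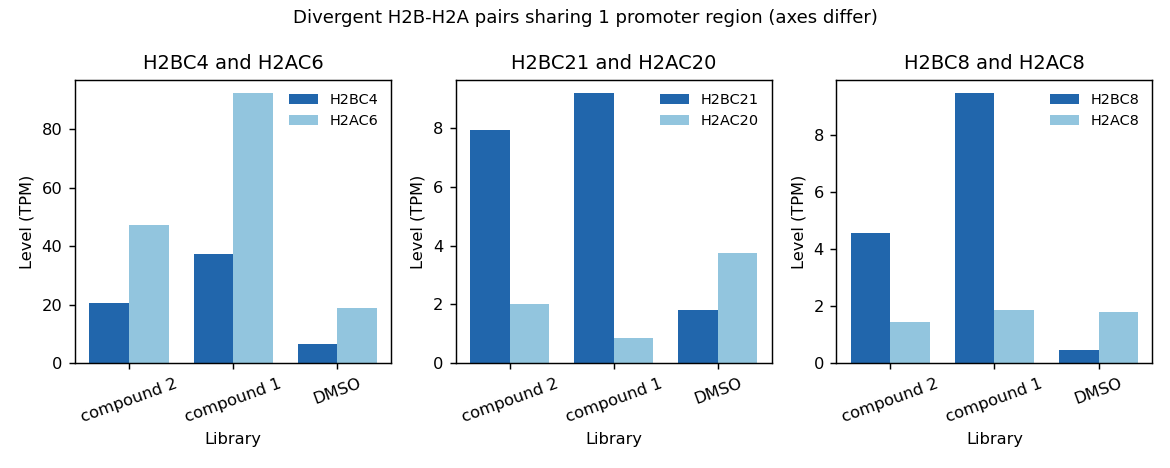
TPM (y axes, which differ between panels) of 3 head-to-head H2B and H2A pairs in the compound 2, compound 1 and DMSO libraries (x axes), 1 library per group. H2BC4 and H2AC6 are both higher after the compounds, whereas H2BC21 and H2AC20 cross, at 9.19 and 0.871 TPM after compound 1 against 1.82 and 3.75 TPM in DMSO.

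Of the genes in whose annotated transcripts the stem-loop was found, 13 of 16 measured ones and 10 of 15 others have a transcript at least 100 bases past it. The 13 measured genes include H2AC6, H2BC4, H2BC21 and H4C14, which were at least 2-fold higher after both compounds, and H2BC9, which was lower after both. They also include H2AC25, H3C10 and H4C8, which did not pass 2-fold on the values as deposited. All 4 genes that were under 1 TPM in the DMSO library are also among the 13. Of the 13, 6 were at least 2-fold higher after compound 2 and 9 after compound 1, beside 12.6% and 14.7% of all genes. Of the 10 other measured genes, 2 and 3 were, H2AC18 and H2BC5 after both. For H2BC5, 39 bases were counted after the stem-loop, but its annotated gene runs on to chr6:26171349. The part of longer transcripts was not tested. No stem-loop was found in the annotated transcripts of 7 measured genes and 35 others.

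Compared at the same dose and time, compound 2 gave lower values than compound 1 for most of the measured genes. Its log2 ratio to compound 1 was negative for 21 of the 23, where it was for 5953 of all 11600 genes of that level. The median ratio was -0.45, beside -0.01 for all genes. Only H2BC15 (-1.54) and H4C15 (-1.38) were at least 2-fold lower after compound 2, where 0.552% of all genes were. No member was 2-fold higher, where 0.293% of all genes were. H2BC15 stood at 0.456 TPM after compound 2 and 3.23 TPM after compound 1, on about 2 and 16 reads. It reached the mean of 1 TPM through the compound 1 library alone, so it had to be lower after compound 2. H4C15 is a copy of H4C14, and for their sum the log2 ratio was -0.76. The remaining 19 genes with negative ratios stayed within 2-fold, H2AC6 at -0.95, H2BC8 at -0.91, H2BC4 at -0.84 and H2BC12 at -0.79, and H2AC18 lay nearer to level (-0.13). In 16 genes the order was compound 1 highest, then compound 2, then DMSO, and the share of all genes in that order was not computed. The exceptions above compound 1 were H2BC9 (0.81) and H2AC20 (0.69), both of them also lower than DMSO after both compounds. With 1 library each, neither the differences nor the near-equal values of the compounds have an interval.

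Some variant histone genes outside the rule were lower after the compounds. Of 15 listed, 12 were in the table and 8 reached a mean of 1 TPM. Of those, 3 were at least 2-fold lower after each compound, where 6.56% of all genes were after compound 2 and 8.09% after compound 1. None was higher, where 12.6% and 14.7% of all genes were. H2AX, whose protein is phosphorylated at DNA breaks, stood at 45.1 TPM after compound 2 and 33.6 TPM after compound 1, against 160 TPM in DMSO (log2 ratios -1.81 and -2.22). CENPA, the centromeric H3, stood at 13.01 and 8.68 TPM against 41.8 TPM, and H2AZ1 at 328 and 283 TPM against 685 TPM. The H3.3 genes, which supply nucleosomes outside S phase, stayed within 2-fold: H3-3A had 336 and 306 TPM against 362 TPM, and H3-3B had 459 and 514 TPM against 390 TPM. MACROH2A1, which encodes an H2A variant of silent chromatin, had 260 and 218 TPM against 206 TPM.

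The machinery around histone synthesis was mixed, and its counts stand beside 12.6% of all genes higher and 6.56% lower after compound 2 and 14.7% higher and 8.09% lower after compound 1. In the list for histone gene transcription, 3 of 10 genes were at least 2-fold lower after compound 2 and 4 after compound 1, and none was higher. They were CCNA2 (log2 ratios -1.52 and -2.34), E2F1 (-1.64 and -2.26) and CCNE2 (-1.14 and -2.05), with CDK2 lower after compound 1 (-1.37, and -0.94 after compound 2). NPAT, the coactivator of clustered histone genes, stood at 8.79 TPM after compound 2, 12.03 TPM after compound 1 and 7.60 TPM in DMSO. Among 16 genes of histone mRNA 3′ end formation, the counts lay near those shares: 1 was lower after compound 2, LSM10 of the U7 particle (-1.15), and 2 after compound 1, SRRT (-1.13) and SLBP (-1.02). SLBP, the stem-loop binding protein, stood at 91.1 TPM after compound 2 and 77.4 TPM after compound 1, against 158 TPM in DMSO. Of 16 genes of histone mRNA translation and decay, XRN1, an exonuclease, was at least 2-fold higher after both compounds (1.84 and 2.17), and TUT7, which adds uridines to histone mRNA, after compound 1 (1.76). LSM4, of the ring that binds the mRNA tail, was lower after both (-1.02 and -1.32), and LSM7 (-1.05) and LSM2 (-1.03) after compound 1. In the list for general poly(A) processing, PCF11 alone of 11 passed 2-fold, higher after both compounds (1.03 and 1.14), a count no higher than those shares.

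Histone chaperones, which carry new histones to DNA, were lower in part. Of 22 genes, 7 were at least 2-fold lower after compound 2 and 8 after compound 1, where 6.56% and 8.09% of all genes were. Only 1 was higher, ATRX (1.60 and 1.65), which deposits H3.3 with DAXX, where 12.6% and 14.7% of all genes were. The lower ones were led by ASF1B, at 24.4 TPM after compound 2 and 13.4 TPM after compound 1 against 110 TPM in DMSO (-2.12 and -2.94). CHAF1A, the large subunit of the replication-coupled assembly factor, had log2 ratios of -1.82 and -2.37, and TONSL -1.63 and -2.20. HJURP, the CENPA chaperone, had -1.56 and -2.15. CHAF1B (-1.30 and -1.60), NASP (-1.14 and -1.30) and IPO4 (-1.04 and -1.38) completed the genes lower after both, and RBBP7 was lower after compound 1 (-1.16). Of 30 S phase and replication genes, 26 were at least 2-fold lower after compound 2 and all 30 after compound 1, beside the same shares of 6.56% and 8.09%. Their median log2 ratios were -1.49 and -2.03. The summed level of that list was 1195 TPM after compound 2, 789 TPM after compound 1 and 3570 TPM in DMSO. The library with the lowest S phase level, compound 1, thus had the highest summed histone level, and the part of one in the other was not tested.

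**Figure D5:**
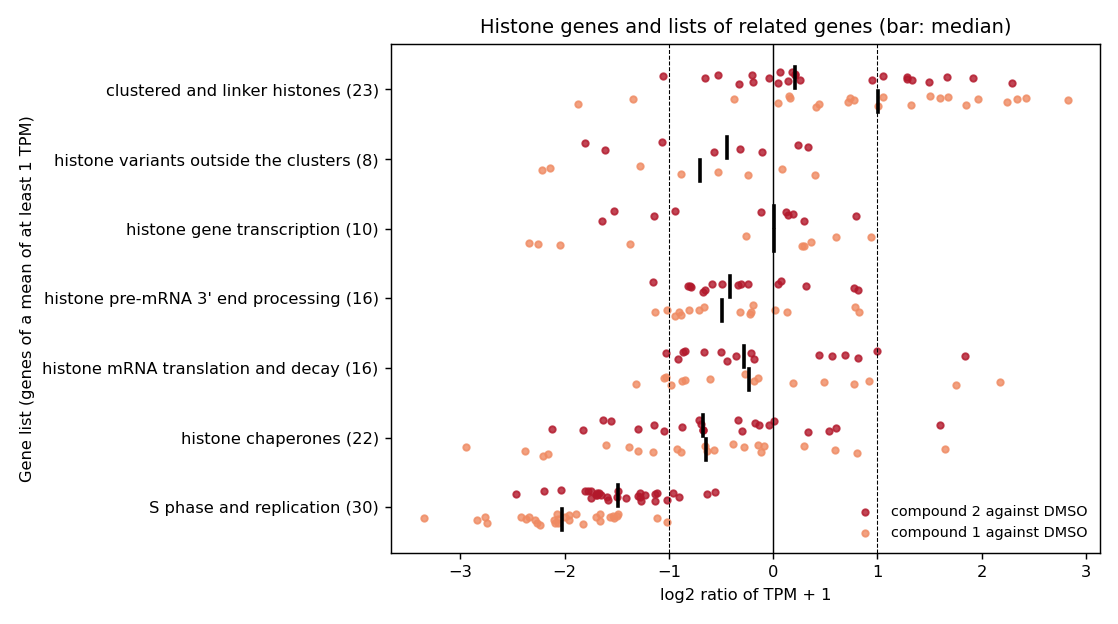
Log2 ratio of TPM + 1 against DMSO (x axis) for single genes (points) of each list (y axis, with the number of measured genes), compound 2 above compound 1 in each row; black bars are medians and dashed lines 2-fold. The clustered and linker histones have medians of 0.21 and 1.01, and the S phase genes -1.49 and -2.03.

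The labelled cell type was checked on marker genes. All 10 lung epithelial markers were measured, EPCAM at 695, 778 and 611 TPM, and the lung factor gene NKX2-1 at 5.66, 8.74 and 19.9 TPM in the compound 2, compound 1 and DMSO libraries. Their summed level was 9186, 9577 and 16492 TPM, and its part in the histone values was not tested. Of 10 leukocyte markers 2 reached a mean of 1 TPM, with summed levels of 2.29, 4.37 and 4.72 TPM, and PTPRC was at 0, 0.269 and 0.064 TPM. Of 8 fibroblast markers 2 did, with sums of 2.71, 1.63 and 3.92 TPM and DCN and LUM at 0 throughout. None of 6 endothelial markers did, and KDR and CDH5 were at 0.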

How the data were processed

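RNA sequencing values of 3 HCC827 libraries (compound 2, compound 1 and DMSO, 1 each) were used. Per the labels' protocols, RNA was extracted with Trizol and libraries were made with an Illumina TruSeq RNA kit. Per the submitters' processing notes, Bowtie 0.12.2 and the builds GRCh38.p12 and mm8 were listed, with no role given; the quantifier and annotation are not given in the sources used here. Headers of the deposited table name FPKM, but each column summed to 1000000, so the authors' values were treated as TPM. All 73 members were taken by symbol; 69 were in GENCODE 29 by identifier and 4 by an older symbol, and 67 had a RefSeq promoter window (GRCh38.p14). No read counts were used. Read numbers are estimates from the steps of low values, so precision is approximate and covers counting alone.

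Log2 ratios of TPM + 1 (pseudocount 1) were computed with Python 3.11.15, numpy 2.4.6 and pandas 2.3.3 for the 11600 genes averaging 1 TPM or more, and called past 2-fold without a test; the computation was tested on simulated data. The share of 31-base words was counted on the longest GENCODE transcript against all transcripts, on both strands. Every member of that mean was named except one, which is counted in all totals but not reported here; of the other lists, up to 4 genes of largest ratio, others past 2-fold, and SLBP, NPAT and H2AX could be; H3-3A, H3-3B, the markers printed and members under the mean were chosen after their values were seen. The members and lists were chosen with earlier results of these data known. The alternatives were 3 pseudocounts, 2 filters, 2 scalings, a length and GC correction, a 1.5-fold threshold and sets without some members. Length and GC content for that correction were those of the longest GENCODE transcript of each gene.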

Additional observations from a re-analysis of the deposited data

How the results depend on the processing

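No paired analysis was possible because each group had 1 library. For compound 1, the count of higher genes (12) moved past 1.5 times under 1 of 13 alternatives, to 6 with a pseudocount of 5; for compound 2 (8) it moved to 4 under the same setting. The lower genes were few, and their number moved more. For compound 2 (1 gene) it was 0 with a pseudocount of 5 and among genes averaging 5 TPM or more, 2 at 1.5-fold and 3 with no filter. For compound 1 (2 genes) it was 0 with a pseudocount of 5 and among genes averaging 5 TPM or more, 4 with no filter, and 1 after correction for length and GC content and without members sharing over 50% of their 31-base words. For compound 2 against compound 1, 2 genes were higher with a pseudocount of 0.1 and at 1.5-fold, against none. The 2 lower genes became 8 at 1.5-fold and 0 with a pseudocount of 5. They became 1 among genes averaging 5 TPM or more, without the member of largest ratio, without members sharing over 50% of their words, and without the 4 genes under 1 TPM in DMSO (added after seeing the data).

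The summed level was 367, 519 and 254 TPM in the compound 2, compound 1 and DMSO libraries with median-of-ratios scaling, and 365, 524 and 256 TPM with upper-quartile scaling. It was 305, 445 and 182 TPM when each library was summed without its own most abundant member. The gene left out differed between the libraries, so these last sums do not cover the same genes. The median log2 ratio of the members lay between 0.00 and 0.75 for compound 2, between 0.25 and 1.31 for compound 1, and between -0.60 and -0.20 for compound 2 against compound 1, with no change of sign. Median-of-ratios scaling set the median of all genes at 0.01 for compound 1, against 0.11 as deposited. Where fewer genes were counted (a higher mean, members left out) the smaller counts follow from that; for the other settings the cause was not tested. With 1 library per group and low members on a few reads, small differences were not detectable.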
